A study of Mus musculus with 21 samples.

Results

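A set of 30 genes differed in opposite directions between EPHA2-KO and parental cells of a pair of mouse pancreatic tumour clones. In 19 of the 30 genes the lines labelled EPHA2-KO were higher than their parent in clone 6694c2 and lower than their parent in clone 6419c5, and in 11 the pattern was the reverse. The 19 included the regenerating islet-derived lectins Reg1, Reg3b and Reg3g, the acute phase genes Lcn2, Crp and Itih4, the antitrypsin genes Serpina1b and Serpina1c, and the stomach genes Pgc and Gkn3. The 11 included Ddc, Tmigd1, Dsc2, Pcdhgb2 and Selp. The members were chosen by their own values. The mean TPM (a relative transcript abundance scaled for length and library) of each line was taken and 1 was added. A gene of the 24623 in the table was kept when at least 1 line mean reached 5 TPM, when the KO/parental ratio was 1.5 or more in both KO lines of one clone, and when it was 0.667 or less in both KO lines of the other. A few named genes and families (Tff1, Tff2, Gkn1, Gkn2, Krt14, Krt79, H2-, Cldn and Col genes) were left out, of which 1, Tff2, met the values. Every difference of a member between KO and parental cells is therefore a description of genes picked for that difference, and carries no test.

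The cells were mouse pancreatic tumour cells that had been placed under the skin of C57BL/6 mice and sorted from the tumours 3 weeks later, with no treatment. Each clone had 1 parental line, titled with only the name of its clone and referred to as WT, and 2 lines labelled EPHA2-KO, called KOA and KOB. Each line of 6694c2 had 4 libraries and each line of 6419c5 had 3, which makes 12 and 9 libraries and 21 in all. EPHA2 is a receptor tyrosine kinase that binds ephrins on neighbouring cells. How Epha2 was edited is not in the labels, nor is whether each library had its own animal, so errors and p-values measure the spread between libraries, which may be technical. With 1 WT line per clone, a difference between KO and WT lines cannot be told apart from any other difference between lines.

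The Reg genes encode small secreted C-type lectins. Reg3b and Reg3g are scarce in the healthy exocrine pancreas and are known to be strongly induced there by injury and inflammation. Both kill bacteria at mucosal surfaces of the gut. Acute phase genes encode plasma proteins that are made under cytokines such as interleukin-6, chiefly by the liver and also by epithelia. Pgc and Gkn3 belong to the stomach lining, a gene programme that pancreatic precursor lesions are known to take up.

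Few genes met the rule. Of the 11425 genes with a line mean of at least 5 TPM, 0.175% met its values in the direction of the 19, Tff2 included, and 0.0963% in the direction of the 11. Genes past the same ratios in 1 direction in all 4 KO lines were more numerous, with 249 higher (2.18%) and 70 lower (0.613%). Just inside the threshold stood Serpina1b, whose ratio nearest to 1 was 1.52-fold. The next inside were 1700011H14Rik at 1.61, Reg1 at 1.69 and Kctd15 at 1.73 on one side, and Cmtm8 at 1.56, Cmbl at 1.56 and Ddc at 1.59 on the other. Just outside stood Dpt at 1.49, Srd5a2 at 1.48, Rhoj at 1.47 and Snord42a at 1.46 in the direction of the 19. In the other direction Slc39a4 stood at 1.47, Nt5e at 1.46, Snora23 at 1.41 and Btbd11 at 1.41.

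Of the 30 members, 26 had a promoter window in the RefSeq table for GRCm38.p6, the assembly of mm10, covering 250 bases before and 50 after the gene's start. Those of 5 secreted proteins among the 19, taken from the Reg, acute phase and stomach groups, are printed 5′ to 3′ on the gene's own strand. Those of Lcn2, Itih4 and Gkn3, of the same groups, are not printed. The capitals mark TATAAA, the TATA box core, on either strand, and TTCNNNGAA, the core of the element that STAT factors bind. The windows are chr6:78370635-78370934 (plus strand) for Reg3b, chr6:78468825-78469124 (minus strand) for Reg3g, chr6:78425733-78426032 (plus strand) for Reg1, chr1:172697806-172698105 (plus strand) for Crp and chr17:47726592-47726891 (plus strand) for Pgc.
Reg3b: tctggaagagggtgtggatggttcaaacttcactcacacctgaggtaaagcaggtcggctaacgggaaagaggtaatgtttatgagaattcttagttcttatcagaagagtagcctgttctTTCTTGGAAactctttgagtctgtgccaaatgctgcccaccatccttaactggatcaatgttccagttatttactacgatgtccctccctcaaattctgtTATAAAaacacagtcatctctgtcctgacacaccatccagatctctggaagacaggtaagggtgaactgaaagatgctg
Reg3g: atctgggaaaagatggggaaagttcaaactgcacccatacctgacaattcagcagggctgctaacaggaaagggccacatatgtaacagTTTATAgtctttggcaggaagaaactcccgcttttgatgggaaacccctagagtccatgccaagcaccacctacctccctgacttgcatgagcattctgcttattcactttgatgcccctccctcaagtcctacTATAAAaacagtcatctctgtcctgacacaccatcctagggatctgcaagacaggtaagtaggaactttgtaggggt
Reg1: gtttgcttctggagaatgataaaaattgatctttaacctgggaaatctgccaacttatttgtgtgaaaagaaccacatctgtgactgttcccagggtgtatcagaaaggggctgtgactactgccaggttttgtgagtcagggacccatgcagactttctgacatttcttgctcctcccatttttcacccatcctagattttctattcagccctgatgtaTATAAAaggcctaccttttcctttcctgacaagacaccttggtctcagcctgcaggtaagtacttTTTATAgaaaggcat
Crp: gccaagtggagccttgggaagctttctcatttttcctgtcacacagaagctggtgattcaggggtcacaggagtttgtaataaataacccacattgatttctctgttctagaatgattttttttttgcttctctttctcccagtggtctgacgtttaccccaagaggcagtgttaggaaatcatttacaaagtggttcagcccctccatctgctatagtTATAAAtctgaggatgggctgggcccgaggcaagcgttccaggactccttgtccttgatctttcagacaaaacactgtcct
Pgc: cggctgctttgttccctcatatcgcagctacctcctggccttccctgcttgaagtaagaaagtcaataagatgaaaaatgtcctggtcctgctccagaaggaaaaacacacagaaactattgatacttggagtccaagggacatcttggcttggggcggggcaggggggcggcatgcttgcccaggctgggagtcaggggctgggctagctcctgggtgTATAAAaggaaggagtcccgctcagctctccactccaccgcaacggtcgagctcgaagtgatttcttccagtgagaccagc
All 5 held TATAAA on the sense strand, beginning 29 bases before the start in Reg3b, 27 in Reg3g, 30 in Reg1, and 31 in both Crp and Pgc. The windows of the same groups that are not printed did not, as Lcn2 and Gkn3 held none and Itih4 held it only on the other strand. On either strand, TATAAA was in 7 of the 18 windows of the first direction (Ckmt1, Crp, Itih4, Pgc, Reg1, Reg3b and Reg3g) and in 2 of the 8 of the second (Ddc and Tmigd1), while 15.7% of the 27025 windows in the table held it. The STAT core was in Reg3b and Itih4 among the 18, in 1500009C09Rik among the 8, and in 9.55% of all windows. TGANTCA, the AP-1 element, was in 5 of the 18 (Crp, Kcne3, Reg1, Serpina1b and Serpina1c) and in 4 of the 8 (Cidec, Ddc, Selp and Tmigd1), against 8.97% of all. GGGCGG, the GC box, was in 7 of 18 and 2 of 8, against 38.2% of all. The promoters of Reg3b and Reg3g shared a run of 29 bases beginning 20 bases before the start, and neither shared more than 10 bases in a row with Reg1. The matches describe letters in these windows only.

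Epha2 itself went with the labels in 6694c2 and not in 6419c5. In 6694c2 it measured 239.9 to 252 TPM in WT, 92.1 to 130 in KOA and 88.0 to 113 in KOB (lowest to highest library), a KO effect of −1.21 ± 0.09 in log2(TPM + 1) (SE, limma, adjusted p = 1.5e-08). In 6419c5 it measured 164 to 190.4 TPM in WT, 144 to 156 in KOA and 169.7 to 221 in KOB, an effect of −0.034 ± 0.10 (limma, adjusted p = 0.819). The sign of that effect turned, to 0.023 without WT library 3 and to 0.017 without KOB library 1. The KO lines of 6419c5 stood on either side of WT, with −0.22 ± 0.12 for KOA and 0.16 ± 0.12 for KOB (limma, adjusted p = 0.173 and 0.312), and all KOA libraries lay below all WT libraries. KOA was lower than KOB, with −0.38 ± 0.12 (limma, adjusted p = 0.0369). The averaged mRNA level of the targeted gene thus did not mark out the 6419c5 libraries labelled KO, and the directions given below for 6419c5 rest on the labels alone. Each library had 12437 to 13316 genes at 1 TPM or more, and Pearson's r across genes between libraries of a line ran from 0.961 to 0.991. The small RNA gene Mir6236 took 22665 to 145023 of each library's 1000000 TPM.

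**Figure D1:**
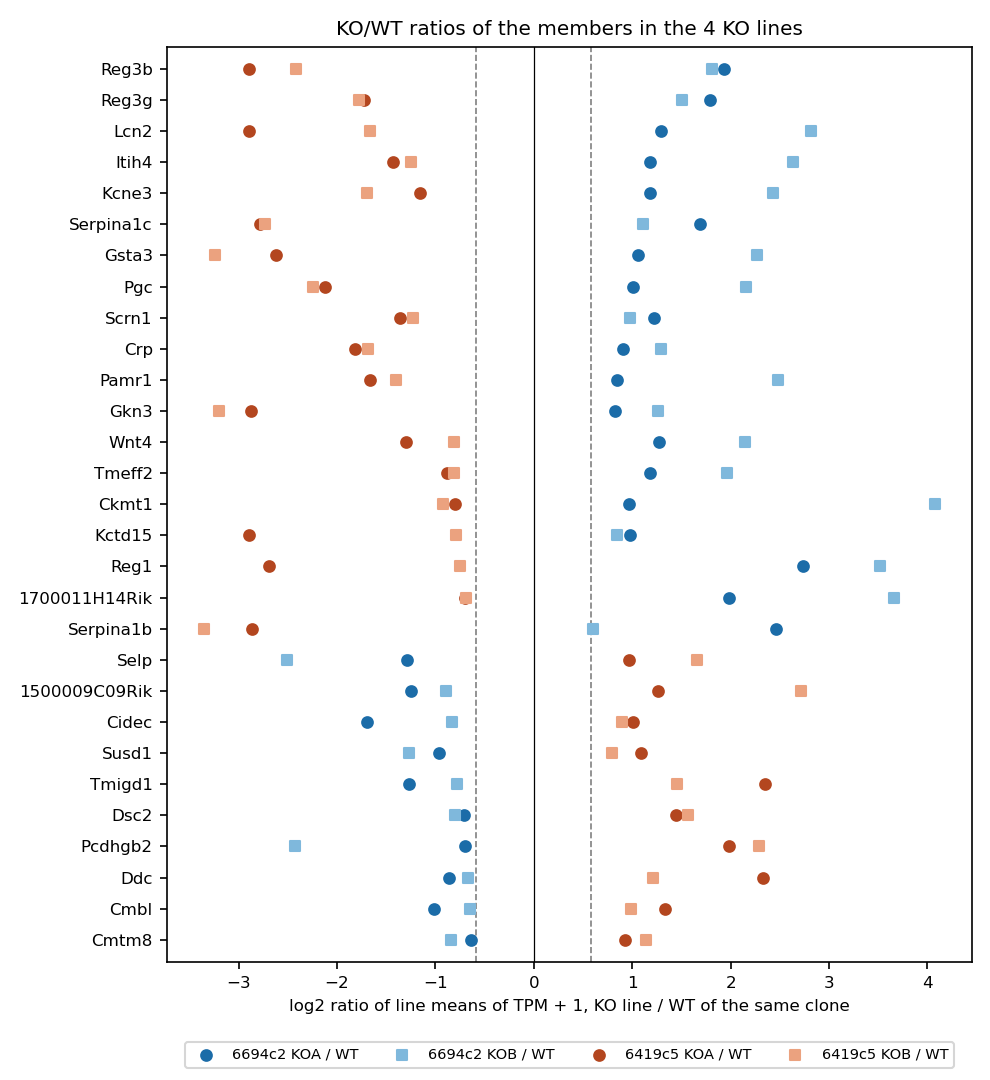
Each row is one of 29 members and each point a KO line, placed at the log2 ratio of its mean TPM + 1 to that of the WT line of its clone (circles KOA, squares KOB; blue 6694c2, red 6419c5; dashed lines at the ratio of 1.5 and its inverse). All points lie outside the dashed lines because the members were chosen so; Ckmt1 in 6694c2 KOB, at 4.08, stands farthest from 0.

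Among the 19, Reg3b and Reg1 had the highest line means. Reg3b (chromosome 6, 78370885 to 78373466) read 32.9, 23.7, 48.2 and 55.3 TPM in the 4 WT libraries of 6694c2, 267, 239.7, 60.0 and 56.5 in KOA and 148, 168, 136 and 119 in KOB. In 6419c5 it measured 14.3, 11.6 and 9.70 TPM in WT, 0, 0.415 and 1.79 in KOA and 0.594, 3.00 and 0.652 in KOB. All 8 KO libraries lay above all WT libraries in the first clone and all 6 below them in the second, and the KOA libraries of 6694c2 fell into a high and a low pair. The line means were 40.03 ± 14.3, 156 ± 113 and 143 ± 20.7 TPM for 6694c2 (SD, n = 4) and 11.9 ± 2.32, 0.735 ± 0.937 and 1.41 ± 1.37 in 6419c5 (SD, n = 3), for WT, KOA and KOB in turn.

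Reg3g (chromosome 6, 78466269 to 78468874) was lower in level than Reg3b, and its KOA libraries of 6694c2 fell into the same high and low pairs. It measured 9.95, 11.1, 13.7 and 20.8 TPM in 6694c2 WT, 78.1, 73.9, 22.2 and 28.6 in KOA and 39.1, 52.0, 38.9 and 34.9 in KOB. In 6419c5 it measured 5.42, 7.22 and 2.06 in WT, 0.316, 0.134 and 1.90 in KOA and 0.723, 0.811 and 0.635 in KOB, and again no KO library overlapped a WT library in either clone. Reg1 (chromosome 6, 78425983 to 78428668) had the highest KOA and KOB ratios of the 3 in 6694c2, with log2 values of 2.74 and 3.52. Its libraries there read 8.67, 6.17, 8.65 and 15.4 TPM in WT, 112, 121, 26.04 and 23.2 in KOA and 132, 135, 114 and 107 in KOB. In 6419c5 it read 13.7, 13.1 and 8.30 in WT, 0.159, 0.813 and 1.91 in KOA and 6.85, 10.5 and 2.303 in KOB, so that 1 KOB library lay inside the WT range. The 3 genes lie within one stretch of chromosome 6, with gaps of 37601 bases between Reg1 and Reg3g and 52517 between Reg1 and Reg3b. Of the other genes of the family, Reg2 was listed at 0 in every line, and no line mean passed 0.191 TPM for Reg3a, 0.0793 for Reg3d or 0.160 for Reg4.

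The acute phase members were Lcn2, Crp and Itih4. Lcn2 (chromosome 2, 32384637 to 32387739), a lipocalin that binds bacterial siderophores, measured 9.98, 17.0, 12.3 and 9.29 TPM in 6694c2 WT, 39.8, 57.4, 12.9 and 14.6 in KOA and 82.5, 116, 109.8 and 59.0 in KOB. In 6419c5 it measured 29.4, 43.2 and 19.3 in WT, 2.31, 2.55 and 4.93 in KOA and 11.3, 13.4 and 2.31 in KOB. KOB was the highest line of 6694c2 for Lcn2, while the lower pair of KOA libraries lay inside the WT range. Crp (chromosome 1, 172698056 to 172699966), the pentraxin C-reactive protein, measured 8.56, 9.48, 10.4 and 10.2 TPM in 6694c2 WT, 18.9, 25.0, 16.6 and 15.1 in KOA and 24.7, 26.7, 28.2 and 21.1 in KOB. Its 6419c5 libraries read 12.3, 6.65 and 3.95 in WT, 1.66, 0.919 and 1.77 in KOA and 1.62, 1.43 and 1.98 in KOB. Crp was among the members whose KO and WT libraries did not overlap in either clone. Itih4 (chromosome 14, 30886476 to 30901986), an acute phase member of the inter-alpha-trypsin inhibitor family, was low throughout, at 0.220 ± 0.213, 1.77 ± 1.33 and 6.56 ± 2.21 TPM in WT, KOA and KOB of 6694c2 (SD, n = 4) and 4.01 ± 0.937, 0.864 ± 0.283 and 1.12 ± 0.536 in 6419c5 (SD, n = 3). Markers of granulocytes, which carry Lcn2 protein, summed to 20.4–31.0, 10.8–36.0 and 11.0–13.0 TPM in WT, KOA and KOB libraries of 6694c2, and to 25.4–52.6, 24.8–56.3 and 22.3–32.4 in 6419c5, over 10 markers. Between 5 and 7 of the 10 had a line mean of at least 1 TPM. Line means ran from 3.32 to 8.59 TPM for S100a8, from 1.19 to 4.88 for S100a9, from 1.38 to 23.5 for Mmp9, from 1.86 to 3.76 for Cxcr2 and from 0.603 to 5.73 for Retnlg, while no line mean of Elane or Mpo passed 0.0346 TPM. The part of granulocyte RNA in the Lcn2 values was not tested.

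Serpina1b and Serpina1c encode forms of alpha-1 antitrypsin, an inhibitor of neutrophil elastase. Serpina1b (chromosome 12, 103728156 to 103738189) read 3.16, 3.34, 3.09 and 3.12 TPM in 6694c2 WT, 15.3, 12.9, 29.1 and 30.4 in KOA and 6.91, 5.63, 5.83 and 2.95 in KOB, and 27.7, 50.8 and 13.9 in 6419c5 WT, 2.76, 5.76 and 1.61 in KOA and 1.71, 2.29 and 2.35 in KOB. KOB of 6694c2 lay close to WT here, with 3 libraries above all WT libraries and 1 below them. Serpina1c (chromosome 12, 103894926 to 103904950) read 0.424 ± 0.170, 3.58 ± 1.99 and 2.07 ± 0.370 TPM in 6694c2 and 6.59 ± 2.94, 0.1001 ± 0.0974 and 0.142 ± 0.246 in 6419c5 (WT, KOA, KOB; SD). These genes lie 156737 bases apart and are near-identical to each other and to others of their family, so the division of reads among them is uncertain. Serpina1a, which did not meet the rule, had line means of 0.744, 3.17 and 1.44 TPM in 6694c2 and 6.61, 0.528 and 0.284 in 6419c5.

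The stomach members were higher in the WT line of 6419c5 than in any other line. Pgc (chromosome 17, 47726842 to 47734478), which encodes progastricsin, the precursor of a stomach protease, measured 11.3, 7.78 and 4.82 TPM in 6419c5 WT, 0.709, 1.33 and 1.16 in KOA and 1.14, 1.06 and 0.468 in KOB. In 6694c2 it measured 0.0670, 0.218, 0.139 and 0.0739 in WT, 1.07, 3.25, 0.312 and 0.408 in KOA and 3.44, 5.17, 5.302 and 2.07 in KOB. Gkn3 (chromosome 6, 87383319 to 87388935), of the gastrokine family of stomach mucosa, measured 8.89, 13.1 and 6.27 TPM in 6419c5 WT, 0.758, 0.517 and 0 in KOA and 0.279, 0 and 0.122 in KOB. In 6694c2 its libraries stayed low, at 0, 0.620, 0.150 and 0 TPM in WT, 3.49, 0.613, 0 and 0.346 in KOA and 0.743, 2.76, 3.01 and 0.929 in KOB, and KOA and WT overlapped. The size of both genes' ratios in 6694c2 thus depended on differences of a few TPM.

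**Figure D2:**
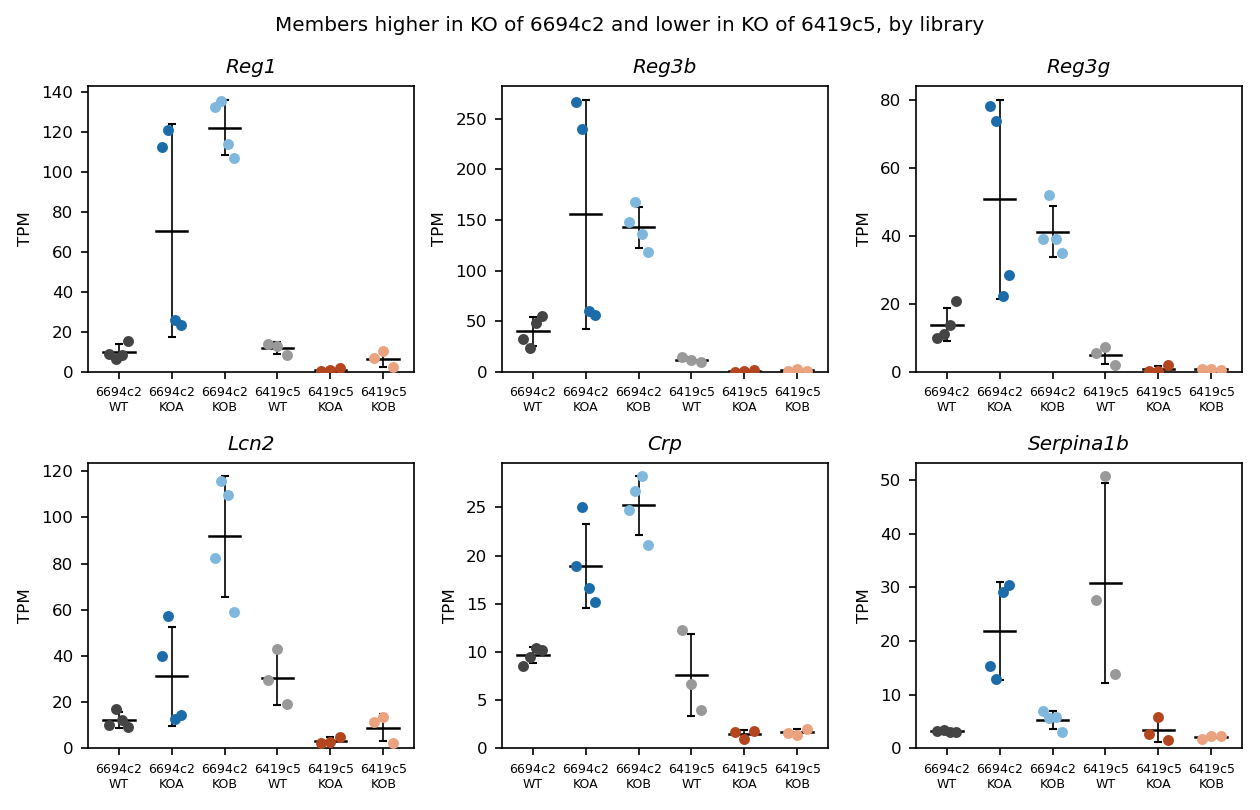
TPM per library (points) of 6 members that were higher in KO of 6694c2 and lower in KO of 6419c5, by line, with the line mean (bar) and SD (whisker; n = 4 in 6694c2, n = 3 in 6419c5). The KOA libraries of 6694c2 form a high and a low pair for Reg1, Reg3b, Reg3g and Lcn2, and the order of the pairs is reversed for Serpina1b.

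The other members of this direction were enzymes, a channel subunit and signalling proteins. Ckmt1 (chromosome 2, 121357773 to 121363737), a mitochondrial creatine kinase, measured 0.836, 0.390, 0.434 and 0.922 TPM in 6694c2 WT, 5.54, 3.23, 0 and 0.0729 in KOA and 24.5, 36.4, 26.1 and 20.3 in KOB, and 4.55, 9.53 and 5.203 in 6419c5 WT, 2.19, 3.50 and 4.09 in KOA and 3.19, 3.38 and 2.195 in KOB. All KOB libraries of 6694c2 lay above those of the other 5 lines. Kctd15 (chromosome 7, 34636999 to 34655509), a BTB-domain protein, measured 11.0, 13.5, 11.8 and 11.0 TPM in 6694c2 WT, 24.3, 27.7, 21.2 and 23.7 in KOA and 24.2, 24.7, 21.6 and 17.4 in KOB. Its 6419c5 libraries read 6.39, 14.1 and 7.85 in WT, 0.442, 0.408 and 0.380 in KOA and 5.23, 4.62 and 5.24 in KOB, which set KOA apart from KOB. Gsta3 (chromosome 1, 21240565 to 21265575), a glutathione S-transferase that conjugates toxic compounds, had line means of 5.301 ± 1.32, 12.1 ± 11.4 and 29.4 ± 7.22 TPM in 6694c2 and 16.4 ± 7.39, 1.84 ± 0.446 and 0.846 ± 0.381 in 6419c5. Its relatives differed from it, with log2 ratios in the order 6694c2 KOA, 6694c2 KOB, 6419c5 KOA and 6419c5 KOB of −2.16, 1.53, 0.54 and 0.03 for Gsta1 and −0.70, 1.06, 0.44 and 0.48 for Gsta4.

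Kcne3 (chromosome 7, 100176507 to 100184869), a regulatory subunit of potassium channels in epithelia, had line means of 4.32 ± 0.830, 11.1 ± 7.49 and 27.7 ± 6.01 TPM in 6694c2 and 8.80 ± 3.47, 3.41 ± 1.34 and 2.02 ± 1.26 in 6419c5 (WT, KOA, KOB; SD). Pamr1 (chromosome 2, 102549939 to 102643041), a secreted protein with a peptidase domain, had 8.76 ± 0.716, 16.6 ± 11.4 and 53.6 ± 13.4 TPM in 6694c2 and 14.8 ± 6.13, 3.99 ± 1.65 and 5.0 ± 1.18 in 6419c5. Both were highest in KOB of 6694c2, and the lower KOA pair there reached into the WT range. Wnt4 (chromosome 4, 137277635 to 137299501), a secreted Wnt ligand, had 1.57 ± 0.433, 5.201 ± 2.18 and 10.4 ± 1.55 TPM in 6694c2 and 13.3 ± 6.32, 4.83 ± 0.954 and 7.17 ± 1.75 in 6419c5. Tmeff2 (chromosome 1, 50900683 to 51187270), a transmembrane protein with EGF-like and follistatin-like domains, had 1.27 ± 0.258, 4.15 ± 1.22 and 7.83 ± 1.61 and then 7.13 ± 1.88, 3.41 ± 0.770 and 3.64 ± 1.27 TPM. For both, WT of 6694c2 was the lowest of the 6 lines. Scrn1 (chromosome 6, 54474794 to 54566517), secernin 1, had 6.42 ± 0.944, 16.3 ± 3.40 and 13.6 ± 0.749 and then 19.6 ± 1.98, 7.04 ± 0.635 and 7.79 ± 1.79 TPM, with no overlap of KO and WT libraries in either clone. 1700011H14Rik (chromosome 14, 49226358 to 49245445), a protein-coding gene named Ccdc198 in RefSeq, had 0.265 ± 0.160, 4.01 ± 1.21 and 14.97 ± 3.89 and then 3.01 ± 1.67, 1.47 ± 0.832 and 1.496 ± 1.37 TPM, and its KO and WT libraries overlapped in 6419c5.

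Of the 11 members of the reverse direction, Ddc differed most in TPM. Ddc (chromosome 11, 11814101 to 11898144), the decarboxylase that makes dopamine and serotonin, measured 23.7, 34.9 and 18.9 TPM in 6419c5 WT, 133, 122 and 146 in KOA and 82.2, 55.3 and 45.4 in KOB. In 6694c2 it was low, at 2.42, 1.81, 1.72 and 1.78 in WT, 0.524, 1.06, 0.299 and 0.573 in KOA and 1.14, 0.477, 0.859 and 0.919 in KOB. KO and WT libraries did not overlap in either clone, although the 6694c2 difference amounted to about 1 TPM. Tmigd1 (chromosome 11, 76891120 to 76916587), an immunoglobulin-like adhesion protein of intestinal and renal epithelium, measured 2.84, 10.8 and 3.00 TPM in 6419c5 WT, 27.0, 31.4 and 38.5 in KOA and 15.6, 12.4 and 22.9 in KOB. In 6694c2 it measured 3.34, 2.81, 2.61 and 2.25 in WT, 0.919, 0.735, 0.317 and 0.249 in KOA and 0.560, 0.623, 1.11 and 2.48 in KOB, with 1 KOB library inside the WT range.

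Dsc2 and Pcdhgb2, both on chromosome 18, encode cadherins. Dsc2, a desmosomal cadherin, measured 2.94, 10.8 and 4.71 TPM in 6419c5 WT, 17.8, 17.1 and 20.6 in KOA and 22.2, 18.7 and 19.9 in KOB. In 6694c2 it measured 0.647, 1.253, 1.33 and 1.17 in WT, 0.489, 0.279, 0.183 and 0.190 in KOA and 0.159, 0.0877, 0.321 and 0.242 in KOB, so its level there was low in every library. Dsg2, its partner in simple epithelia, had log2 ratios of −0.40, 0.81, 1.45 and 1.73 in 6694c2 KOA and KOB and 6419c5 KOA and KOB. Pcdhgb2, a clustered protocadherin, measured 10.1, 11.7, 9.96 and 10.1 TPM in 6694c2 WT, 5.85, 5.93, 6.34 and 6.08 in KOA and 1.36, 0.962, 1.29 and 0.906 in KOB. In 6419c5 it measured 1.55, 4.16 and 2.89 in WT, 13.7, 13.0 and 16.0 in KOA and 17.5, 17.2 and 18.9 in KOB, and its libraries were tight within every KO line. Clustered gamma protocadherins share their last exons, so the level of one of them is uncertain. Others of the cluster took different patterns, with line means of 14.8, 3.87, 2.97, 0.907, 0.442 and 1.49 TPM for Pcdhgb5 and 0.192, 0.202, 0.159, 12.3, 0.5259 and 1.94 for Pcdhgb4 (WT, KOA and KOB of 6694c2, then of 6419c5).

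Selp and Cidec are usually read as genes of other cell types. Selp (chromosome 1, 164115264 to 164150026), the P-selectin of endothelium and platelets, measured 4.77, 7.34, 7.34 and 7.78 TPM in 6694c2 WT, 1.71, 0.662, 2.76 and 3.66 in KOA and 0.504, 0.430, 0.164 and 0.397 in KOB, and 0.141, 0.443 and 0.328 in 6419c5 WT, 2.44, 1.33 and 0.874 in KOA and 2.57, 3.92 and 2.89 in KOB. Endothelial markers summed over 12 genes, Selp not among them, ran from 10.9 to 22.7 TPM in 6694c2 WT libraries, from 21.1 to 43.5 in KOA and from 6.95 to 11.1 in KOB. In 6419c5 they ran from 24.9 to 45.2 in WT, from 24.3 to 37.5 in KOA and from 47.2 to 72.3 in KOB. None of the 12 was at 0 in all libraries of a line, KOA of 6694c2 had Selp below all WT libraries beside sums at or above most WT sums, KOB of 6419c5 had both above WT, and the part of endothelial RNA in the Selp values was not tested. Cidec (chromosome 6, 113424634 to 113435760), a lipid droplet protein of fat cells, measured 17.4, 9.62, 8.84 and 10.4 TPM in 6694c2 WT, 3.33, 6.98, 0.365 and 0.826 in KOA and 5.79, 4.87, 6.91 and 6.64 in KOB, and 2.28, 4.55 and 1.69 in 6419c5 WT, 5.57, 6.43 and 8.15 in KOA and 4.62, 6.15 and 7.67 in KOB. The 8 fat cell markers, Cidec among them, summed to 18.7–32.0, 11.2–23.3 and 16.8–20.6 TPM in WT, KOA and KOB libraries of 6694c2 and to 13.7–19.5, 20.3–22.6 and 19.7–25.5 in 6419c5, and 4 of the 8 had a mean of at least 1 TPM in each line. Those 4 were Cidec, Lipe, Fabp4 and Plin4, so the sums move in part with Cidec itself. Lipe had line means of 6.85, 8.49 and 8.47 TPM in WT, KOA and KOB of 6694c2 and 7.43, 7.54 and 8.83 in 6419c5. In the same order Fabp4 had 2.93, 3.12 and 1.66, then 4.73, 3.45 and 5.23. Plin4 had 1.52, 2.02 and 2.33, then 1.46, 3.67 and 2.24. Adipoq and Plin1 had line means of at most 0.137 and 0.0244 TPM, Lep was listed at 0 in every line, and the part of fat cell RNA in the Cidec values was not tested. In such sorted bulk samples fewer cells of a type and less RNA per cell cannot be told apart.

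The long non-coding RNA 1500009C09Rik (chromosome 15, 82252472 to 82260746) read 29.1, 23.4, 21.2 and 27.2 TPM in 6694c2 WT, 13.8, 18.3, 3.83 and 4.29 in KOA and 14.0, 9.05, 13.7 and 15.5 in KOB, and 0.878, 1.62 and 1.43 in 6419c5 WT, 6.83, 3.39 and 3.43 in KOA and 9.38, 18 and 15.04 in KOB. Its KOA pairs stood in the same order as those of Reg3b, here with libraries 3 and 4 farther from WT. Cmbl (chromosome 15, 31565342 to 31590119), a cytosolic hydrolase, had 23.6 ± 3.66, 11.2 ± 0.231 and 14.7 ± 1.90 TPM in 6694c2 and 16.0 ± 7.64, 42.0 ± 0.611 and 32.8 ± 6.90 in 6419c5 (WT, KOA, KOB; SD). Cmtm8 (chromosome 9, 114789343 to 114844152), a MARVEL-domain membrane protein, had 6.05 ± 0.880, 3.52 ± 2.12 and 2.94 ± 0.916 and then 18 ± 7.58, 35.2 ± 5.83 and 40.8 ± 0.786 TPM, with 1 KOA library of 6694c2 inside the WT range. Susd1 (chromosome 4, 59314202 to 59439869), a sushi-domain protein, had 7.07 ± 0.310, 3.14 ± 0.175 and 2.36 ± 0.447 and then 4.89 ± 1.98, 11.5 ± 2.28 and 9.22 ± 0.942 TPM. The libraries of Cmbl and Susd1 did not overlap between KO and WT in either clone.

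**Figure D3:**
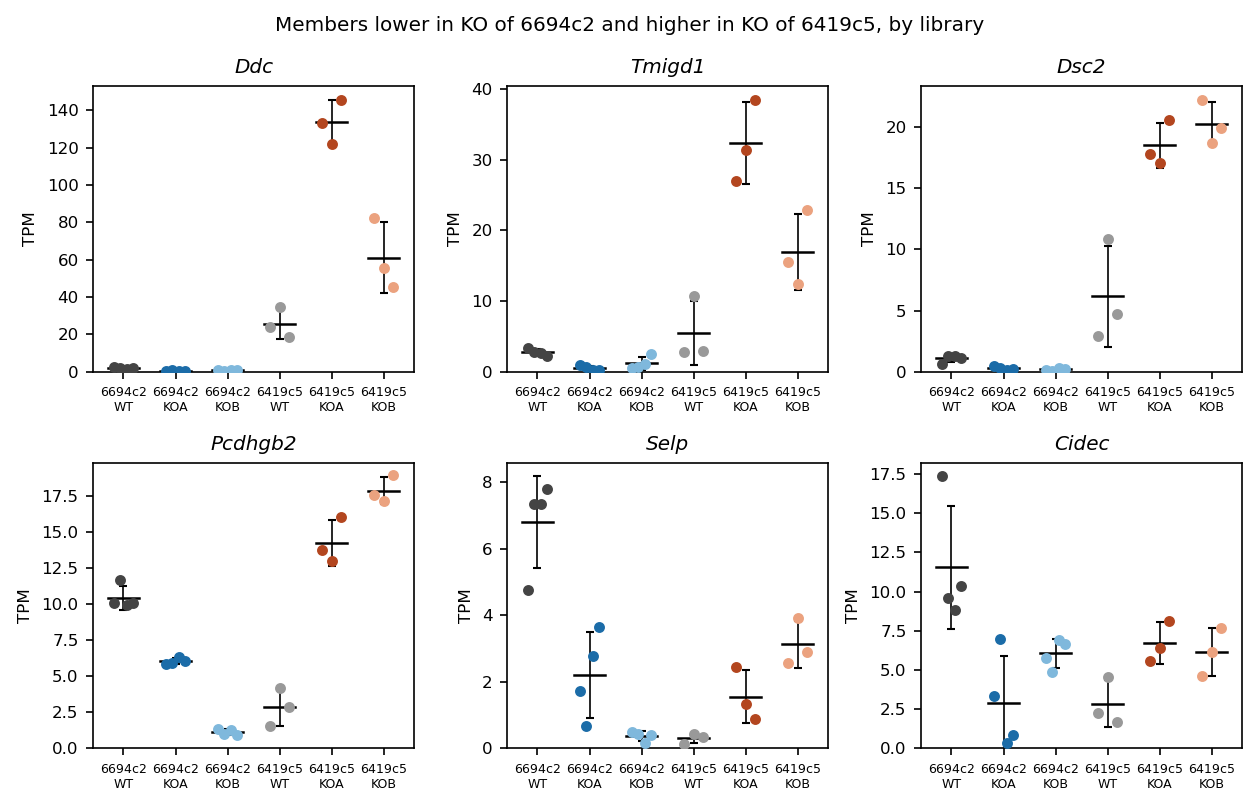
TPM per library (points) of 6 members that were lower in KO of 6694c2 and higher in KO of 6419c5, by line, with the line mean (bar) and SD (whisker; n = 4 in 6694c2, n = 3 in 6419c5). In 6419c5 all 6 KO libraries lie above all 3 WT libraries for each gene, and in 6694c2 Ddc, Dsc2 and Tmigd1 stay below 4 TPM.

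Counted by library, the opposite pattern was complete in 18 members. In 6694c2 all 8 KO libraries lay above all WT libraries in 12 of the 19, where 10.1% of the 11425 genes did so, and below them in 9 of the 11, against 5.43% of genes. In 6419c5 all 6 KO libraries lay below all WT libraries in 16 of the 19, against 10.6% of genes, and above them in 11 of the 11, against 19.8%. Since the rule used these libraries, nothing is read from these shares. Both clones were without overlap in 9 of the 19 (Reg3b, Reg3g, Crp, Itih4, Serpina1c, Pgc, Scrn1, Tmeff2 and Kctd15) and in 9 of the 11, with Tmigd1 and Cmtm8 the exceptions in the latter. The share of all genes without overlap in both clones, in opposite directions, is not given here, so nothing is read from the joint counts either. A ratio of at least 2 in all 4 KO lines was reached by 8 of the 19 and by 0 of the 11. Median log2 ratios of the 19 were 1.18 and 2.15 in KOA and KOB of 6694c2 and −1.81 and −1.66 in 6419c5, and those of the 11 were −0.96, −0.84, 1.26 and 1.21. Over all 11425 genes the medians were 0.08, 0.06, 0.05 and 0.10. No line mean reached 10 TPM in 5 of the 19 and 2 of the 11.

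The WT lines of the clones were also ordered by their means, with no limit on the size of the difference. WT of 6694c2 was lower than WT of 6419c5 in 15 of the 19, with Reg3b, Reg3g, Crp and Kctd15 the 4 exceptions. It was higher in 7 of the 11, with Ddc, Tmigd1, Dsc2 and Cmtm8 the exceptions. In 13 of the 19 and 5 of the 11 the clone that was lower among the WT lines was the higher one among the KO lines. Serpina1b shows this turn, from means of 3.18 and 30.8 TPM in WT of 6694c2 and 6419c5 to 21.9 and 3.38 in KOA. The WT values are part of the ratios in the rule, so this order is a description too. The shares of all genes in each order are not given here, so nothing is read from these counts.

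The KOA libraries of 6694c2 were not alike. Libraries 1 and 2 were both above libraries 3 and 4 in 14 of the 19 members and both below them in 1, Serpina1b. Of the 11, 5 had libraries 1 and 2 above and 3 had them below. Library 3 or 4 was at or below the highest WT library in 6 of the 19 (Lcn2, Kcne3, Gsta3, Pamr1, Gkn3 and Ckmt1), and library 1 or 2 in 1, Gkn3. The shares of all genes with these orders are not given here, so nothing particular to the members is read from these counts. Across the 14337 genes tested, Pearson's r was 0.981 between libraries 1 and 2, 0.988 between 3 and 4, and 0.966 to 0.972 between the pairs. Libraries of KOB had an r of 0.985 to 0.991. Leaving out libraries 1 and 2, the rule found 26 genes, 20 of them among the 30. The 10 members lost included Reg3b, Lcn2, Itih4, Pgc, Gkn3, Gsta3, Kcne3, Pamr1 and Ckmt1. Leaving out libraries 3 and 4 instead gave 42 genes, with 29 of the 30 and without Cmtm8. Which of these pairs stands for the line was not tested, and the labels name no batch.

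**Figure D4:**
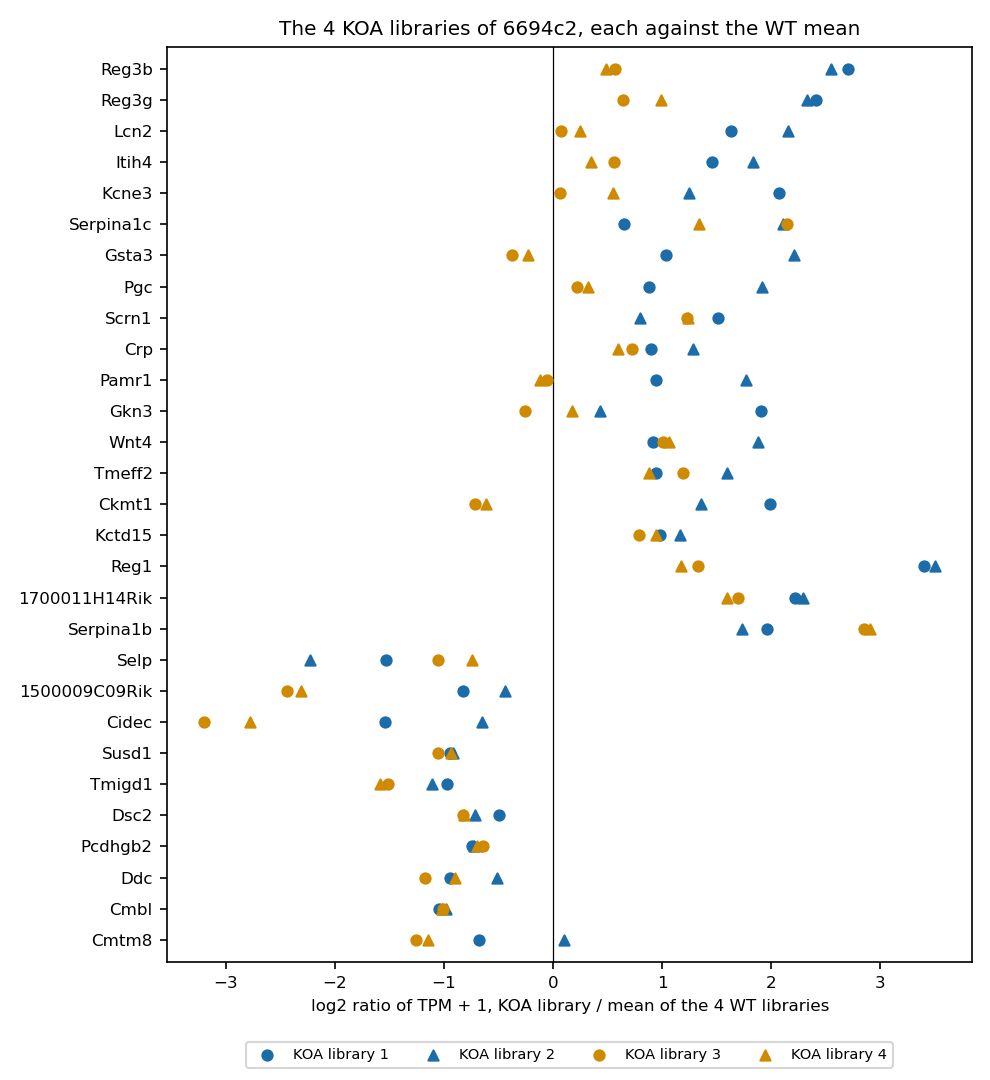
Each row is one of 29 members and each point a KOA library of 6694c2, placed at the log2 ratio of its TPM + 1 to the mean of the 4 WT libraries + 1 (blue libraries 1 and 2, orange libraries 3 and 4). Blue points lie to the right of orange ones in 14 of the 19 members of the first direction, and the orange points of Gsta3, Pamr1 and Ckmt1 lie left of 0.

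KOA and KOB of a clone were also compared with each other. The rule does not use this difference, but it uses both means, so the p-values of this comparison are not independent of the choice of members and describe how alike the KO lines were. In 6694c2, 14 of the 30 members differed between KOA and KOB at an adjusted p under 0.05 (limma on log2(TPM + 1), Benjamini-Hochberg over 14337 genes), a share of 46.7% against 46.5% of all genes tested. In 6419c5 it was 4 of 30, or 13.3%, against 17.4%. In 6694c2 the share of members was near that of all genes. Of the 19, 10 were lower in KOA than in KOB of 6694c2 and 1, Serpina1b, was higher. Among the 11, Pcdhgb2 and Selp were higher in KOA and Cidec was lower. The shares of all genes called in each direction are not given here, so nothing is read from these directions.

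Pcdhgb2 had the smallest p in 6694c2, with KOA above KOB by 1.73 ± 0.15 in log2(TPM + 1) (SE, limma, adjusted p = 4.71e-08), and all 4 KOA libraries above all 4 KOB libraries. Ckmt1 was lower in KOA, with −3.55 ± 0.45 (limma, adjusted p = 3.86e-06), as were Pamr1 with −1.81 ± 0.34 (limma, adjusted p = 2.59e-04) and Itih4 with −1.53 ± 0.29 (limma, adjusted p = 2.71e-04). For these 3 as well the KOA and KOB libraries did not overlap. Serpina1b went the other way, with KOA above KOB by 1.81 ± 0.35 (limma, adjusted p = 3.35e-04). The Reg genes did not pass, with differences of −0.22 ± 0.47 for Reg3b, 0.10 ± 0.39 for Reg3g and −1.16 ± 0.49 for Reg1 (limma, adjusted p = 0.735, 0.851 and 0.0592), and their standard errors took in the split of the KOA libraries. Without KOA libraries 3 and 4 only 7 members were called in 6694c2, where 35.2% of all genes were.

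In 6419c5 the largest difference between KO lines was that of Kctd15, lower in KOA than in KOB with a difference of −2.09 ± 0.19 in log2(TPM + 1) (SE, limma, adjusted p = 1.03e-06). Ddc was higher in KOA, with 1.16 ± 0.22 (limma, adjusted p = 0.00146), and its 3 KOA libraries all lay above its 3 KOB libraries. 1500009C09Rik was lower in KOA with −1.46 ± 0.41 (limma, adjusted p = 0.0207), and so was Reg1 with −1.87 ± 0.56 (limma, adjusted p = 0.0294). Neither of the last 2 calls held in every repeat that left out 1 library, and each was lost in 4 of 21. Without KOA library 2 or without KOB library 2 of this clone 2 members were called.

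**Figure D5:**
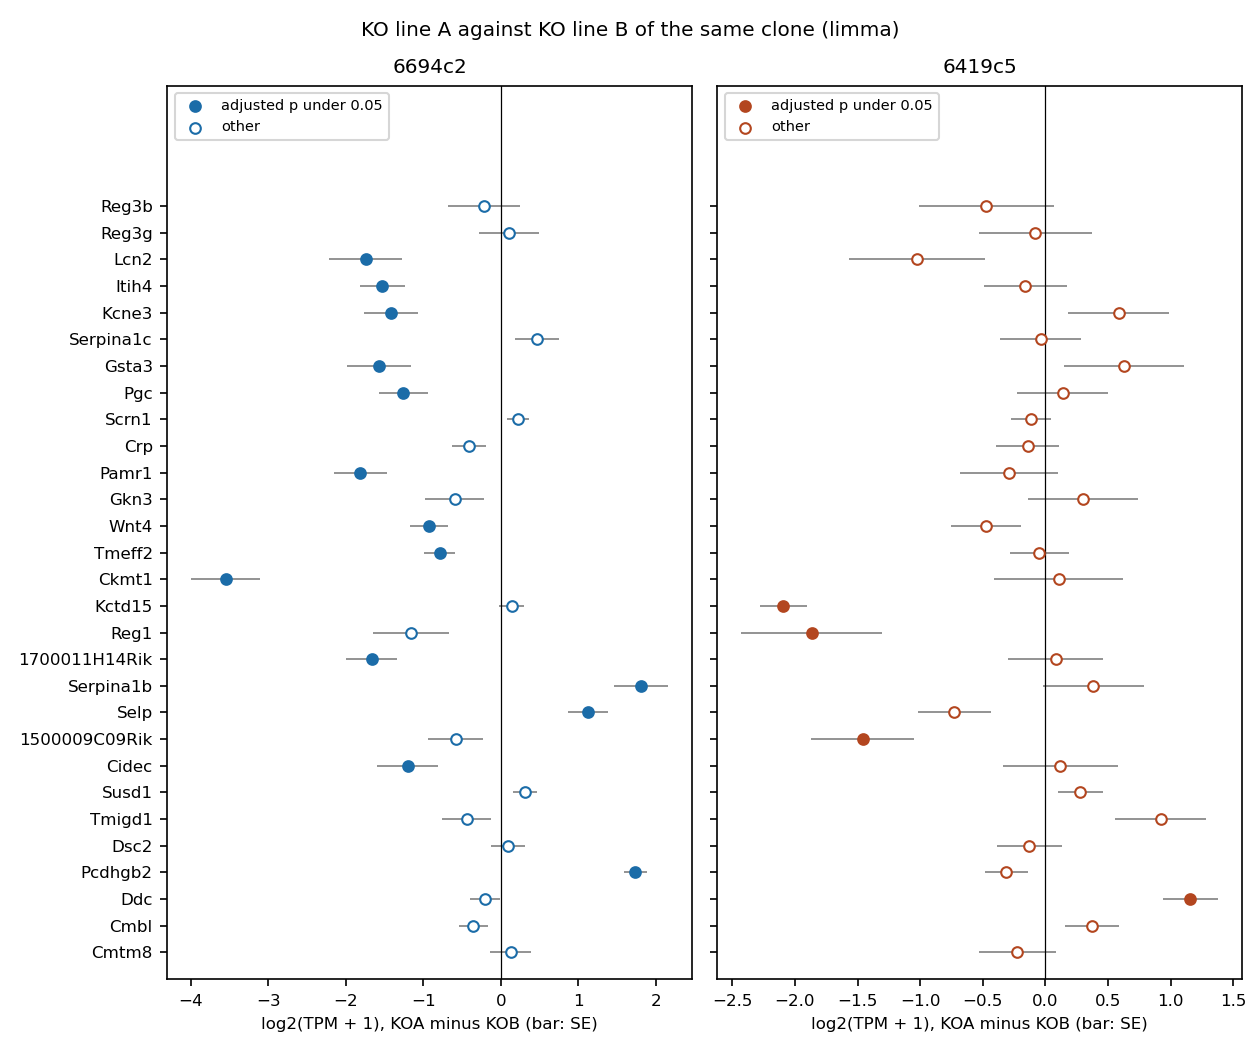
Difference between KOA and KOB in log2(TPM + 1) for 29 members with its standard error (bar), in 6694c2 (left) and 6419c5 (right; the horizontal scales differ); filled points passed limma's test at an adjusted p under 0.05. Filled points number 14 on the left, mostly below 0, and 4 on the right.

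Other genes of the members' groups were looked at clone by clone. The complement and acute phase list, which leaves out Crp, Itih4, Serpina1b and Serpina1c, held 15 tested genes, of which Lcn2 was a member. Of the other 14, in 6694c2 4 (C3, C1s1 and C1ra among them) were called higher in both KO lines than in WT and 0 lower, where 8.33% of all tested genes were called higher and 4.03% lower (limma, adjusted p under 0.05 in each line). In 6419c5 3 (C3, Cfb and Cd55) were called higher and 2 (Cfi and Hp) lower, where 14.9% and 8.23% of all were. None of the 14 was called in opposite directions in the 2 clones. The share of all tested genes called so is not given here. Nothing is therefore read from this count or from the similar counts of other lists below. C3, the central complement component, was called higher in all 4 KO lines, with log2 ratios of 2.67, 4.05, 0.82 and 0.87 in 6694c2 KOA and KOB and 6419c5 KOA and KOB. Cfi, the complement factor I protease, came nearest to the members with 0.39, 1.69, −1.91 and −0.93, and was called in all of these lines but the first (limma, adjusted p = 0.696 in 6694c2 KOA). Hp, haptoglobin, had −0.12, 0.69, −1.52 and −1.43. The serum amyloid genes Saa1 and Saa2, major acute phase genes of the liver, were at or near 0, and no line mean passed 0.314 TPM. Saa3, the serum amyloid gene of other tissues, had line means of 9.45, 34.1 and 2.88 TPM in 6694c2 and 9.31, 8.21 and 2.50 in 6419c5, and was called in none of the 4 KO lines (limma, adjusted p = 0.0506, 0.123, 0.178 and 0.107).

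Of the stomach and mucin list, 14 other genes were tested. In 6694c2 1 was called higher in both KO lines, Agr2, and 0 lower; in 6419c5 4 (Muc13, Vsig1, Lgals4 and Ceacam1) were called higher and 1 (Tff3) lower, and 0 went opposite ways. Muc5ac, the main gastric mucin, stood apart within 6694c2, with a mean of 158 TPM in KOB beside 4.61 in WT and 4.32 in KOA. In the Wnt pathway list, 26 genes other than Wnt4 were tested, and 1, Lgr5, was called higher in both KO lines of 6694c2 and lower in both of 6419c5. Of 25 genes of cholesterol and lipid synthesis, none of them a member, 18 were called lower in both KO lines of 6694c2 and 7 higher in both of 6419c5. Of these, 5 were in both counts, Fdps, Srebf2 and Stard4 among them, with ratios that did not all reach the 1.5-fold of the rule. These genes were singled out after their values were seen, the lists were drawn up with earlier results of these data known, and the clones' calls are given side by side without a test of the difference.

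Markers of normal pancreas were checked because Reg genes are known from acinar tissue. The 13 acinar markers summed to 64.7–69.2 TPM in 6694c2 WT libraries, 28.7–59.3 in KOA and 75.6–116 in KOB, and to 37.8–44.4, 13.8–15.4 and 6.76–12.2 in 6419c5. Most of this came from Cela1 and Try5. Cpa1, Amy2a5, Cela3b, Try4 and the acinar transcription factor Ptf1a were listed at 0 in every line. The sum moved with the Reg genes in 3 of the 4 KO lines, below WT in both lines of 6419c5 and above WT in KOB of 6694c2, and against them in KOA of 6694c2, where it was below WT. The higher sum in KOB of 6694c2 came from Cela1, with a line mean of 101 TPM beside 58.8 in WT. Try5 and Prss2 were lower in that line, at 0.390 and 0.0624 TPM beside 7.39 and 1.11 in WT. The part of acinar RNA in the Reg values was not tested. The 10 islet markers summed to at most 1.02 TPM in any library. Macrophage markers, 20 genes, summed to 468–2873 TPM in 6694c2 WT, 446–2156 in KOA and 282–863 in KOB, and to 1881–5044, 594–9102 and 687–935 in 6419c5, and WT and KOA overlapped in both clones. KOB of 6419c5 lay wholly below its WT. Median differences from WT over the 20 genes, in log2(TPM + 1), were 0.34 in KOA and −0.97 in KOB of 6694c2. In 6419c5 they were −1.03 in KOA and −2.34 in KOB. For 15 fibroblast and pericyte markers the medians were 0.58, −0.69, −0.66 and −0.12 in the same order. The part of macrophage or fibroblast RNA in the members' values was not tested.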

How the data were processed

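Gene-level TPM values were deposited by the authors for 21 libraries. They were made with Salmon against mouse build mm10, per the submitters' processing notes; the Salmon version and the annotation are not given in the sources used here. TPM keeps no read numbers, so depth is unknown and precision comes only from the spread between libraries. All sample columns were used. Columns letter the KO lines and titles number them, and no source ties the 2, so KOA and KOB follow the columns.

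The rule for members was applied to line means of TPM + 1. Values were tested as log2(TPM + 1), computed from the deposited TPM, in 1 limma 3.58.1 model (R 4.3.3) of all 21 libraries with a mean per line and trended eBayes, over the 14337 genes that reached 1 TPM in 3 or more libraries. Limma's test was two-sided with Benjamini-Hochberg adjustment over all genes, and was tried on simulated data. The threshold for a call was an adjusted p of 0.05. Python 3.11.15 with numpy 2.4.6, pandas 2.3.3 and matplotlib 3.10.9 did the rest. Named genes are the members, Epha2, the 4 genes nearest the threshold on each side and, for KOA against KOB, the 4 members of smallest p per clone. The members and all gene lists were chosen with earlier results of these data known. One member and a few other genes of the lists are counted but not reported by name here. All 30 members matched the RefSeq gene table, 1 by a synonym. Alternatives were pseudocounts, floors, ratios, scalings, filters, a replicate block and leaving out libraries.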

Additional observations from a re-analysis of the deposited data

Results flagged for a closer look

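In 7 of the 90 groups of 4 libraries that the members give in 6694c2, or 7.78%, 1 library stood far from the other 3; chance alone marks about 1 in 20 such groups. The share of such groups over all genes is not given here, so nothing is read from the 7.78%. Lines of 3 libraries, those of 6419c5, were not examined. Among WT libraries, Itih4 read 0.538 TPM in library 1 against 0.0831 to 0.142 in the others, Ddc 2.42 in library 1 against 1.72 to 1.81, and Selp 4.77 in library 1 against 7.34 to 7.78. Kcne3 read 5.56 TPM in WT library 3 against 3.78 to 3.98, and Pcdhgb2 11.7 in WT library 2 against 9.96 to 10.1. Among KO libraries, Wnt4 read 8.45 TPM in KOA library 2 against 3.85 to 4.35, and 1700011H14Rik read 9.17 in KOB library 4 against 16.5 to 17.4.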

How the results depend on the processing

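Membership depended most on the pseudocount and the ratio. A pseudocount of 0.1 gave 54 members (37 in the direction of the 19 and 17 in that of the 11), a pseudocount of 5 gave 10 (9 and 1), a looser ratio gave 118 (68 and 50) and a ratio of 2 gave 8 (8 and 0). Lower and higher floors, median line values, means of logs, size factors and quantile normalization gave 23 to 41 members, and all counts stayed within 1.5 times the 30. The genes were not all the same. Line medians kept 23 of the 30 and lost Ckmt1, Ddc, Gkn3, Gsta3, Kctd15, Pamr1 and Wnt4. The floor of 10 TPM also kept 23, means of logs and size factors kept 28 each, and quantile normalization kept 29. Leaving out each library in turn gave 29 to 37 members, 18 to 25 in the first direction and 8 to 17 in the second, the 17 without 6419c5 WT library 2. Of the 30, 16 were kept in every such repeat. Serpina1b was lost without KOB library 1, 2 or 3 of 6694c2. For KOA against KOB, leaving out each library gave 13 to 18 members called in 6694c2 and 2 to 5 in 6419c5, the 2 without KOA library 2 or without KOB library 2, and other settings gave 7 (without KOA libraries 3 and 4, added after seeing the data) to 19 and 4 to 5. With each library left out in turn, the KO effect on Epha2 ran from −1.246 to −1.16 in 6694c2 and from −0.086 to 0.023 in 6419c5. With size factors the Epha2 effect was −1.28 in 6694c2 and −0.12 in 6419c5, outside these ranges. Without the 2 libraries of highest Mir6236 (added after seeing the data) it was 0.023 in 6419c5, and 38 members were found. With a replicate block on the library numbers, 14 and 4 members were called, as without it. Same-numbered libraries deviated together with r of −0.15 to 0.17 over 21 pairs, 6 of them over 0.1. Differently numbered libraries were not compared, so whether the numbers pair libraries is not settled. Depth is unknown for TPM, and members under 10 TPM rest most on the pseudocount.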
